A study of Mus musculus with 6 samples.

Results

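The nuclear factor I (NFI) family was followed in the retinas of mice at postnatal day 4 (P4), on every probe set that the probe annotation pairs with Nfia, Nfib, Nfic or Nfix. These 4 genes carry 16 probe sets of the 20380 that are paired with a single gene symbol, which together name 12393 genes. Retinal RNA of 6 mice of a mixed C57/129 background was hybridised, 1 mouse to an Affymetrix Mouse 430A 2.0 array: 3 wildtype mice and 3 Nhlh2 knockout mice. Each knockout mouse had a wildtype littermate, and a shared number marks them, so the arrays form 3 pairs. Litter 1 and litter 3 below mean pairs 1 and 3. Whether different pairs came from different litters was not established here. Nhlh2 is a basic helix-loop-helix factor of developing neurons. How the knockout allele was made is not given in the sources used here, and no probe set was paired with Nhlh2, so the loss of its transcript could not be checked on these arrays.

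NFI proteins bind DNA as dimers at a palindrome built from the half-site TTGGC, and their conserved DNA-binding domain lies at the amino end. In the nervous system Nfia, Nfib and Nfix are known for the switch of progenitors from making neurons to making glia. In the retina they are known from late progenitors, where they favour cell cycle exit and the late-born bipolar cells and Müller glia. Nfic is known mostly from teeth and other organs outside the nervous system. The arrays were made from whole retinas, so they cannot place an NFI transcript in progenitors or in any other cell type, and fewer cells of a type cannot be told apart from less RNA per cell.

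Nfib entered the study as one of the genes with predicted sites for miR-124, miR-125 and miR-9. A microRNA pairs with its target through a seed, bases 2 to 8 counted from the 5′ end, and the mature sequences in RefSeq (GRCm38.p6) are shown, in capitals over the seed, so that the shared seed of both forms of miR-125 can be seen beside that of miR-9.
mmu-miR-125a-5p: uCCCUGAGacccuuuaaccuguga
mmu-miR-125b-5p: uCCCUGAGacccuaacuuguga
mmu-miR-9-5p: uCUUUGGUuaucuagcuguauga
The microRNAs themselves were not measured on these arrays, and no target site was examined.

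Since Nhlh2 is a helix-loop-helix factor, the RefSeq promoters of Nfia, Nfic and Nfix (250 bases before to 50 after each start site, GRCm38.p6) were searched for the E-box CAGCTG, which reads the same on both strands. The Nfib promoter was not analysed here. The E-box was found in 1 of 6 promoter windows, at an Nfix start site, and in 16.3% of all 32851 promoters. The NFI half-site TTGGC on either strand was found in 3 of the 6, all of Nfix, against 46.7% of all promoters, and the full palindrome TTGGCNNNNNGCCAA was found in 0 of the 6. The Nfix window with the E-box and the pair of half-sites nearest to an Nfix start site are printed with the motif in capitals, all from the minus strand. The windows of the half-sites overlap.
Nfix E-box, chr8:84775919-84775940: cctggtttCAGCTGgagaggag
Nfix half-site, chr8:84772868-84772888: tgggggcaGCCAAacattggc
Nfix half-site, chr8:84772860-84772880: gccaaacaTTGGCcagtccgg
These matches describe the letters only. No binding was measured.

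The array of knockout replicate 2 stood apart from the other 5. The ratio of its 3′ to its 5′ Actb control probe set was 274, against 1.38 to 1.56 elsewhere, and its median signal was 9.0, against 51.3 to 95.5. It was therefore left out of the genotype comparison, and its NFI values are given separately. Scaled signal means the deposited signal of an array after the 75th percentile of its probe sets was set to a common 265.8. In wildtype replicate 1 the summed scaled signal of 13 lens genes was 9867, against 154 to 240.2 in the other 4 arrays of the comparison. Without that array 2 of the 8 tested NFI differences between knockout and wildtype changed sign, to 0.10 for Nfib 1427680_a_at and -0.18 for Nfic 1435527_at, and none passed the test of limma with adjustment.

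Each of the 4 NFI genes had at least 1 probe set above the array's median in all 3 wildtype arrays. The signal lay above the array's median in all 3 wildtype arrays for 8 of the 16 probe sets, and 6 of these 8 were above the 75th percentile in every one. Another 7 lay below the median in all 3, and 1 was above it in a single array. By definition as many probe sets of an array lie above its median as below it, so 8 of 16 is not read as a result about NFI genes. The share of all probe sets above either limit in all 3 arrays was not computed. Percentiles are used because signals depend on the probes, so that no gene's level can be set against that of another.

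**Figure D1:**
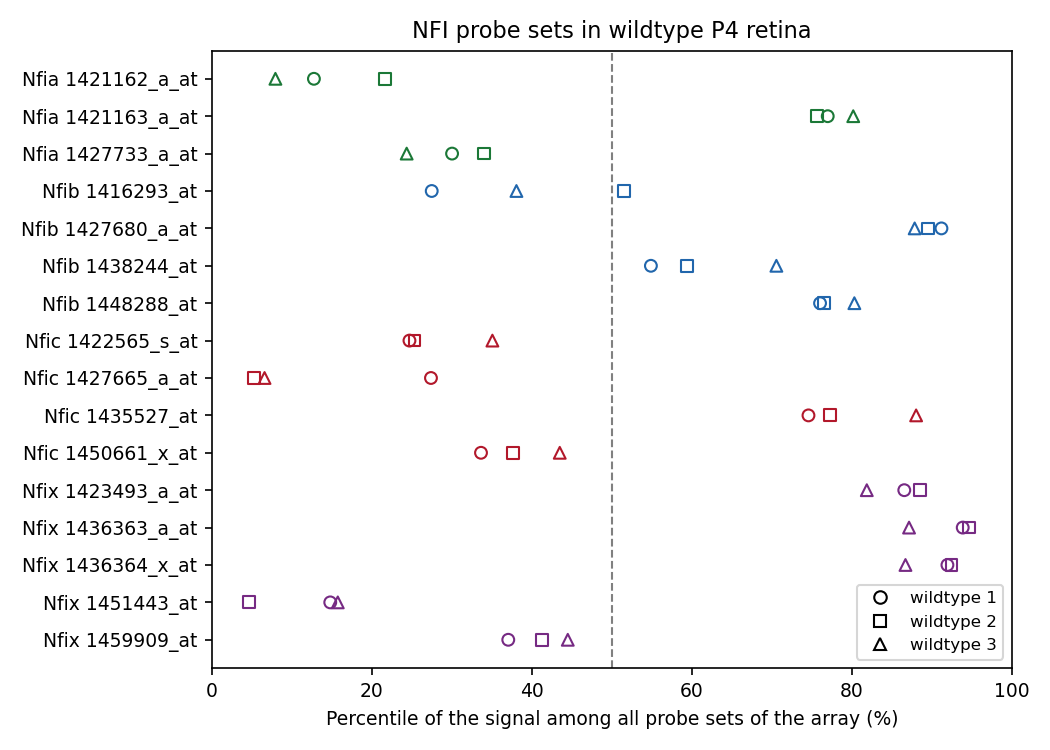
Percentile of the deposited signal among all non-control probe sets of the same array (x axis, %) for the 16 NFI probe sets (y axis) in the 3 wildtype P4 arrays, 1 symbol per array and 1 colour per gene; the dashed line is the array's median. All 4 genes have a probe set near or above the 75th percentile and, except for Nfib 1416293_at in wildtype 2, further probe sets that stay left of the median in every array.

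Nfia was read by probe set 1421163_a_at. Its scaled signal was 295, 275 and 354 in wildtype replicates 1, 2 and 3, with a mean of 308 ± 41.4 (SD, n = 3 mice), and it lay at percentiles 77.0, 75.7 and 80.2. A second probe set with the same accession in the annotation, 1421162_a_at, had 4.74, 12.7 and 2.14, at percentiles 12.7, 21.6 and 7.93. The last, 1427733_a_at, stayed at or below percentile 34.0. For Nfia, then, a single probe set of 3 carried the signal, and no second probe set could be used to check it.

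Nfib had 3 probe sets above the median in all wildtype arrays. The brightest, 1427680_a_at, had 784, 655 and 610.0 in wildtype replicates 1, 2 and 3 (mean 683 ± 90.6; SD, n = 3). Probe set 1448288_at had 281, 286 and 357 (308 ± 42.7), and 1438244_at had 98.3, 125 and 214 (146 ± 60.4). In wildtype replicate 3 the first of these was at its lowest and the others were at their highest. For 1448288_at this depended on the scaling, since as deposited it had 284.4, 355.7 and 283.9, lowest in replicate 3. The dim probe set 1416293_at ranged from 19.3 in replicate 1 to 83.5 in replicate 2.

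Nfic, the family member least associated with neural tissue, was also bright on 1 of its 4 probe sets. Probe set 1435527_at had 259.9, 298 and 619.9 in wildtype replicates 1, 2 and 3 (393 ± 198; SD, n = 3), so that replicate 3 stood above the other two. Its spread on the log2 scale, 0.67, was the largest of the 8 bright NFI probe sets. The others, 1422565_s_at, 1450661_x_at and 1427665_a_at, lay at or below percentile 43.5 in every wildtype array, and the suffixes of the first 2 mark probes that may bind transcripts of other genes.

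Nfix was bright on 3 of 5 probe sets, 2 of which, 1436363_a_at and 1436364_x_at, carry the same accession in the annotation. Probe set 1436363_a_at had 1052, 1149 and 573 in wildtype replicates 1, 2 and 3 (925 ± 308; SD, n = 3), and 1436364_x_at had 846, 884 and 551 (760.3 ± 182). Probe set 1423493_a_at had 519.8, 592 and 392 (502 ± 101). All 3 were lowest in wildtype replicate 3, the array in which Nfic was highest. The dim 1459909_at had 34.4, 45.8 and 51.5, highest in replicate 3, and 1451443_at did not exceed 6.42.

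The knockout comparison asks whether retinas without Nhlh2 differ in NFI transcripts. No NFI probe set passed the test. The comparison used limma on log2(scaled signal + 1) in 3 wildtype and 2 knockout arrays, over the 11313 probe sets whose mean was above the median of all means. Of these 0 (0%) had an adjusted p under 0.05, and 77 (0.681%) an unadjusted p under 0.05. The 8 bright NFI probe sets were tested, and the 8 dim ones were not. For the 8, adjusted p was 0.9999 (limma, Benjamini-Hochberg), 3 differences were above and 5 below 0, and their median was -0.027, against -0.0018 over all probe sets tested. In the littermate pairs 1 and 3, the knockout was higher in both for 3 of the 8 (22.3% of all probe sets tested), lower in both for 3 (25.9%) and of opposite sign for 2 (51.8%). The fit above has no term for the pair, so differences between pairs add to its spread. With the pair as a term, 456 probe sets had an unadjusted p under 0.05, none of them NFI, and 0 an adjusted one. The NFI differences of largest size were then -0.82 for Nfia and 0.36 for Nfix 1436363_a_at (limma, unadjusted p = 0.103 and 0.0957).

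Nfia was the one tested NFI probe set with a knockout mouse below and another above all wildtype mice. In knockout replicates 1 and 3 its scaled signals on 1421163_a_at were 65.1 and 508.9, below and above all 3 wildtype arrays (275 to 354). The difference of knockout minus wildtype was -0.74 ± 0.77 on the log2 scale (SE, limma, 95% interval -2.60 to 1.12). It was -2.17 in littermate pair 1 and 0.52 in pair 3, so the pairs had opposite signs. A difference of -2 or lower in pair 1 was found for 9 of the 11313 probe sets (0.0796%), a limit set after the value of Nfia was seen. With all 6 arrays the fitted difference was -1.01, and with array weights, which did not reach their convergence tolerance, it was 0.14. Without knockout replicate 1 it was 0.73, and without knockout replicate 3 it was -2.22. In the fits without a knockout replicate the lone knockout mouse was assumed to vary like the wildtype mice. Pmf1, a kinetochore gene, had the nearest profile over the 5 arrays, with a root mean square distance of 0.31 (log2) after each profile was centred. Its scaled signals were 100.4, 84.7 and 114 in wildtype and 30.1 and 123 in knockout replicates 1 and 3.

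**Figure D2:**
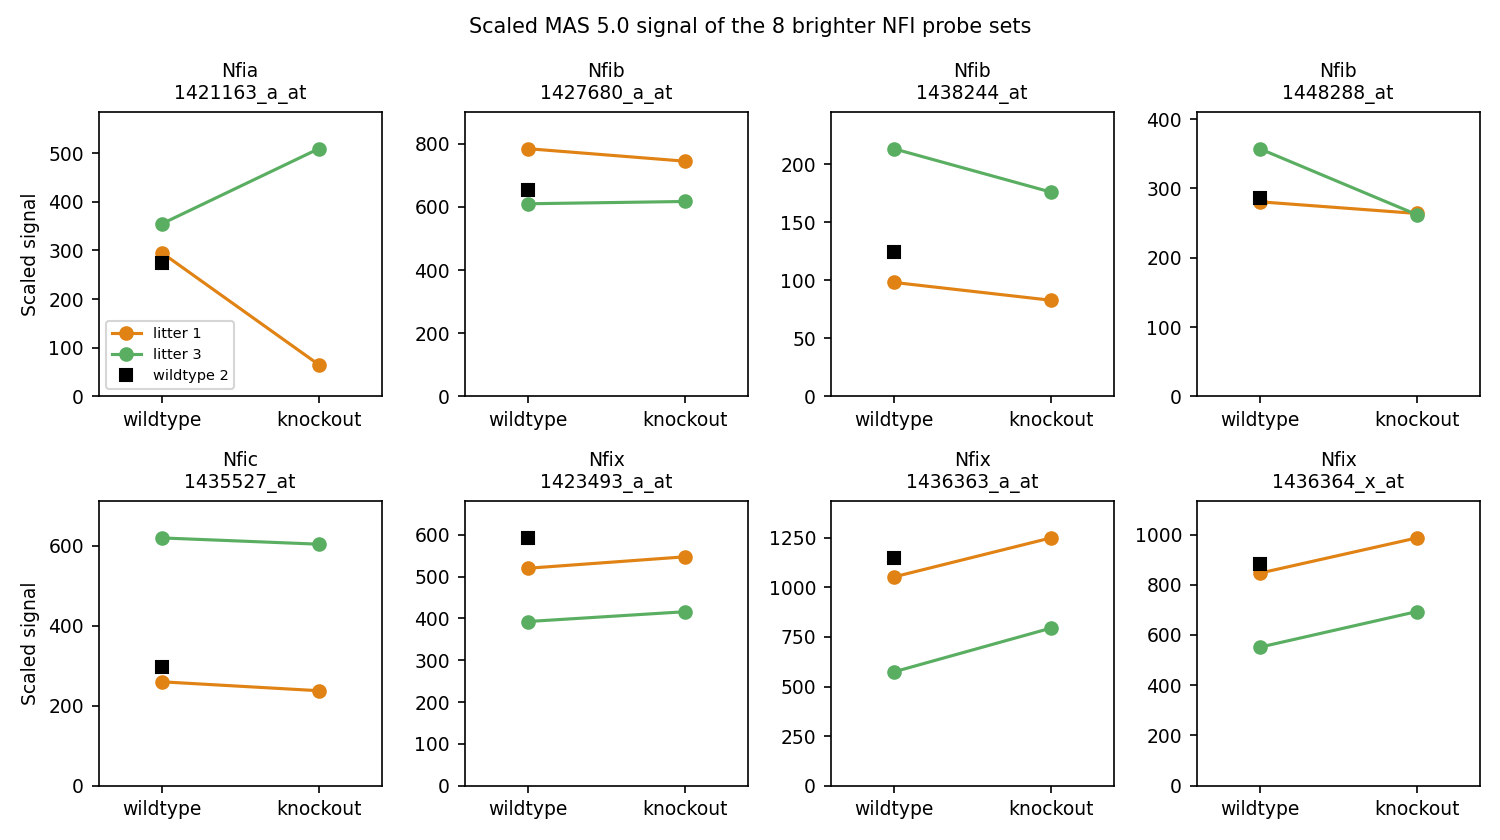
Scaled MAS 5.0 signal (y axis, linear from 0) of the 8 NFI probe sets above the median, in wildtype and knockout retinas (x axis); each point is 1 mouse and lines join the littermates of litters 1 and 3. Nfia falls in litter 1 and rises in litter 3, while for Nfic and Nfix the distance between the litters exceeds that between the genotypes.

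For Nfib the differences were close to 0 or below it. On 1427680_a_at the knockout mice had 745 and 617, within the wildtype range, and the difference was -0.0024 ± 0.21 (SE, limma). On 1448288_at they had 264 and 262, below the 281 to 357 of the 3 wildtype mice, with a difference of -0.22 ± 0.20 (limma, unadjusted p = 0.305). This was the single tested NFI probe set whose groups did not overlap, and the knockout was lower without overlap in 5.67% of all tested probe sets. No NFI probe set was higher without overlap, which 5.2% of all tested probe sets were. On 1438244_at the knockout mice had 82.9 and 176, which overlaps the wildtype range, and the difference was -0.19 ± 0.43. The 95% intervals of the 3 probe sets ran from -0.50 to 0.49, from -0.69 to 0.25 and from -1.23 to 0.85, and each held 0.

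For Nfic and Nfix no probe set passed, and the groups overlapped on each. Nfic 1435527_at had 238 and 604 in knockout replicates 1 and 3, against 259.9 and 619.9 in their wildtype littermates, that is -0.13 in pair 1 and -0.037 in pair 3 on the log2 scale. The fitted difference was 0.060 ± 0.51 (SE, limma). With the pair as a term in the fit it was -0.083, so its sign depends on the fit. Nfix was higher in the knockout in both pairs on all 3 bright probe sets. On 1436363_a_at the knockout mice had 1249.6 and 794.6, differences of 0.25 and 0.47 in pairs 1 and 3. On 1436364_x_at they had 986 and 693, differences of 0.22 and 0.33, and on 1423493_a_at 547 and 416, differences of 0.074 and 0.084, which as deposited were 95.5% and 99.3% of the littermate, below it. The fitted differences were 0.17 ± 0.36, 0.15 ± 0.29 and -0.051 ± 0.25 (SE, limma), of which the first 2 became -0.10 and -0.12 on signals as deposited. The 3 Nfix probe sets share the RNA of each array and are not replicates, and the suffix of 1436364_x_at marks probes that may bind transcripts of other genes.

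**Figure D3:**
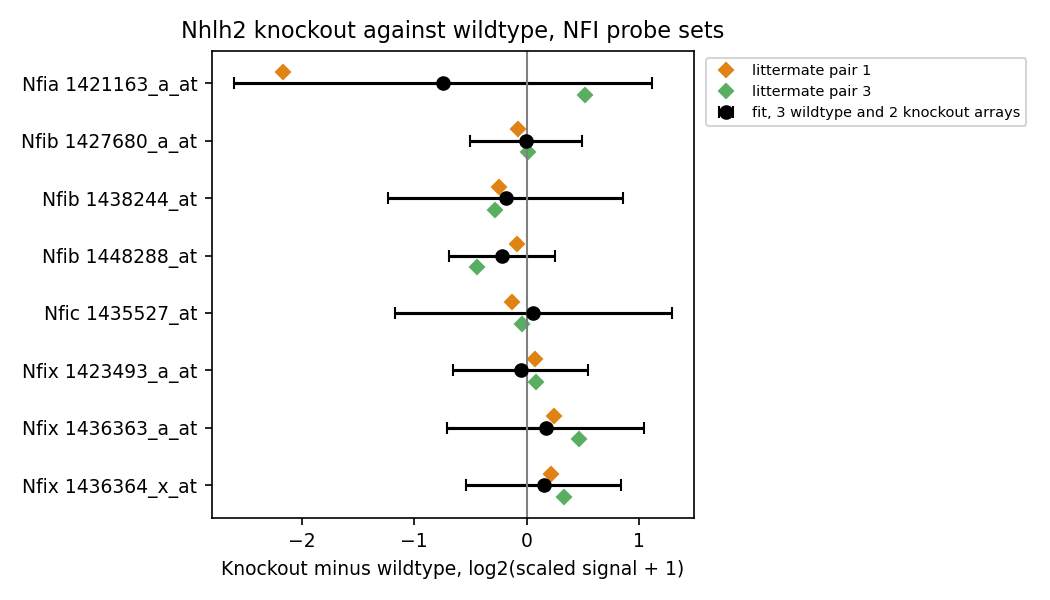
Knockout minus wildtype on the log2(scaled signal + 1) scale (x axis) for the 8 tested NFI probe sets: black points with bars are the limma difference and its 95% interval from 3 wildtype and 2 knockout arrays, diamonds are littermate pairs 1 and 3. Every interval holds 0, and the pairs of Nfia lie on either side of it at -2.17 and 0.52.

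Differences between pairs 1 and 3, called litters 1 and 3 here, were larger in size than those between littermates for 6 probe sets. These were Nfic, all 3 bright probe sets of Nfix and 2 of Nfib, 1438244_at and 1427680_a_at. Nfic was higher in litter 3 than in litter 1 by 1.25 in wildtype and 1.34 in knockout (log2, 1435527_at), and Nfib 1438244_at by 1.11 and 1.08. Nfib 1427680_a_at was lower, by -0.36 and -0.27. A rise of 1 or more in both genotypes was found for 1.21% of all tested probe sets. Nfix was lower in litter 3, by -0.87 in wildtype and -0.65 in knockout on 1436363_a_at, by -0.62 and -0.51 on 1436364_x_at, and by -0.40 on 1423493_a_at in both. A drop of 0.5 or more in both genotypes was found for 7.37% of probe sets. Both limits were set after the values were seen. Each pair has 1 array per genotype, and pair, litter and array cannot be told apart, so these are values with no test. Over all tested probe sets, 39.6% were higher and 32.5% lower in litter 3 in both genotypes, and the median difference was 0.045 in wildtype and 0.038 in knockout.

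**Figure D4:**
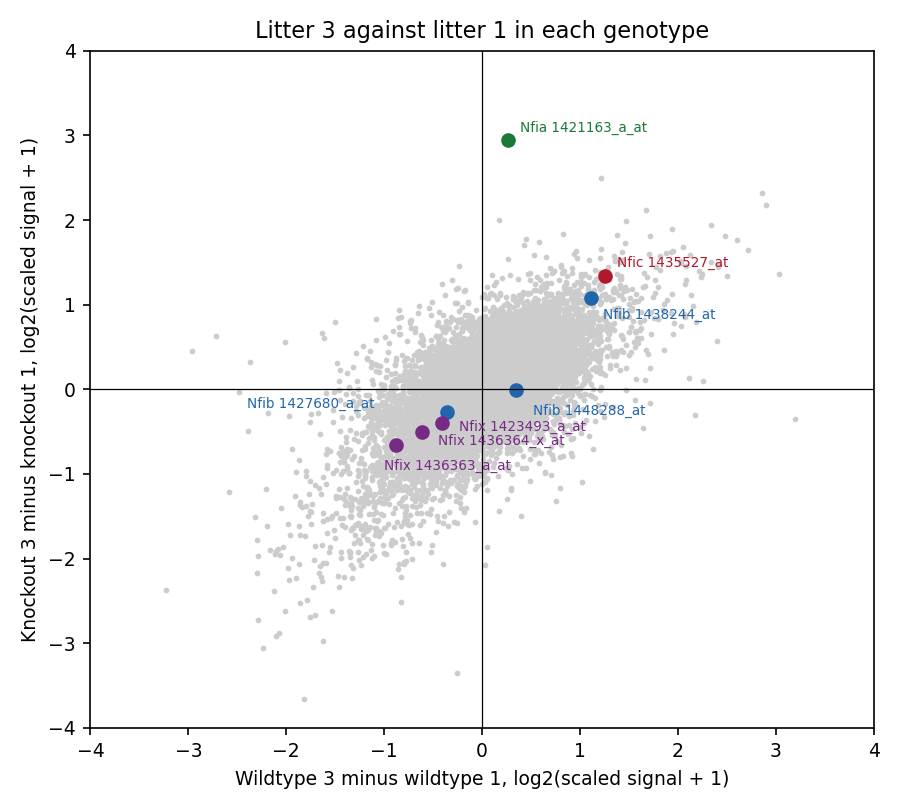
Difference of litter 3 minus litter 1, meaning pair 3 minus pair 1, on the log2(scaled signal + 1) scale in wildtype (x axis) and in knockout (y axis). Grey points are all tested probe sets (4 lie outside the axes) and coloured points the 8 tested NFI probe sets. Nfic and Nfib 1438244_at lie at the upper right, the 3 Nfix probe sets at the lower left, and Nfia at 0.26 and 2.95, of which the former was -0.088 on signals as deposited.

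Wildtype replicate 2, whose littermate array was left out, lay nearer to litter 1 than to litter 3 for Nfic, with 298, and for Nfix 1436363_a_at, with 1149. Probe sets of Nfib disagreed between the litters. The ratio of 1427680_a_at to 1438244_at within an array, which no scaling changes, was 7.98 and 8.98 in wildtype and knockout of litter 1, 5.26 in wildtype replicate 2, and 2.86 and 3.50 in litter 3. The ratio of 1427680_a_at to 1448288_at ran from 1.71 to 2.82. The ratio of the Nfix probe sets 1436363_a_at and 1436364_x_at stayed between 1.04 and 1.30, and that of 1436363_a_at to 1423493_a_at between 1.46 and 2.28. The SD of these ratios over the 5 arrays, on the log2 scale, was 0.72 and 0.29 for the Nfib pairs and 0.13 and 0.24 for the Nfix pairs, in the order given.

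Profiles over the 5 arrays were also compared between genes, and since the nearest were chosen for their likeness, their values are a description. The nearest to Nfic 1435527_at over 5 arrays were Cdk5r1, the activator of a neuronal kinase, Ntm, an adhesion protein of neurons, and the DNA polymerase gene Polb, at distances of 0.058, 0.066 and 0.073. Cdk5r1 had 249, 292 and 669.6 in wildtype and 239 and 605 in knockout replicates 1 and 3. The nearest to Nfix 1436363_a_at were Dhx30, Recql and Arih2 at 0.036, 0.037 and 0.045, and Dhx30 had 465, 509, 239, 536 and 333 in the same order. For Nfib 1427680_a_at they were Map4, Abce1 and Gjc1 at 0.022, 0.025 and 0.028. Its profile was flat, and 418 of 10463 probe sets lay within 0.1 of it, against 39 for Nfix and 17 for Nfic. For Nfia the next nearest were Mast1 and Flywch2, at 0.50 and 0.54, and 0 probe sets lay within 0.1.

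The lists of cell type genes were set beside the litters as a description, with no test. On the log2 scale, the median difference of litter 3 minus litter 1 was 0.89 in wildtype and 0.16 in knockout for 11 tested rod and photoreceptor genes, with 10 and 6 of them higher. Of all tested probe sets, 53.8% were higher in litter 3 in wildtype and 53.4% in knockout. For 22 cell cycle genes it was -0.55 and 0.016, with 3 and 12 higher. For 17 Müller glia genes it was 0.095 and -0.078, and for 18 progenitor genes -0.046 and 0.32. The summed scaled signal of the 13 measured rod and photoreceptor genes was 19784 and 33910 in wildtype replicates 1 and 3, and 21322 and 26867 in knockout replicates 1 and 3. The part of cell composition in the NFI values was not tested.

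None of the genes that act with NFI factors or are published as their targets passed the test for a genotype difference. Of 24 genes listed, 22 were measured and 15 tested, with 0 higher and 0 lower at an adjusted p under 0.05 (limma), 0 at an unadjusted p under 0.05, and a median difference of -0.028. The highest were Hes1, the Notch effector that keeps progenitors undifferentiated and is repressed by Nfia in the developing brain, with 0.34 ± 0.23 (SE), and the corepressor Ski with 0.22 ± 0.20. The lowest were Sox9, the glial factor that induces Nfia in spinal cord and works with it, with -0.36 ± 0.24, and Mmd2, a target of both factors, with -0.26 ± 0.18. Sox9 had scaled signals of 313, 271 and 355 in wildtype and 199 and 293 in knockout replicates 1 and 3, so the groups overlapped. Hes1 had 161, 152 and 149.7 in wildtype and 158 and 241 in knockout, where only replicate 3 lay above the wildtype range. The astrocyte genes Gfap, S100b, Aldh1l1 and Aqp4 were too dim to be tested. Gfap, a classic NFI target, had 65.3, 69.5 and 122 in wildtype and 33.1 and 45.6 in knockout, below all 3, as untested values at percentiles 47.4 to 59.6 of the wildtype arrays. S100b was also below all 3, with 64.2 and 51.3 against 65.3 to 104, while Aldh1l1 and Aqp4 overlapped. Of the other untested genes on the list, Gabra6 was below all 3 too, with 1.96 and 5.91 against 8.93 to 11.8. Cntn2 and Tead1 overlapped. The knockout was lower without overlap in 5.67% of all tested probe sets. The share over those under the filter was not computed, so these values are not read as a result.

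Genes on the list of shared progenitor genes had bright probe sets in these arrays. All 18 measured genes on this list lay above the median of every array in the comparison, among them Notch1. The list also holds Atoh7, named below for ganglion cell fate. On the list of early progenitor genes, 6 to 8 of 13 lay above the median of an array. Each gene was read by its brightest probe set, and the share over all genes read in this way was not computed. Vim is also on the Müller glia list and Pax6 on the amacrine list, so these signals cannot be assigned to progenitors. The progenitor genes had a median genotype difference of 0.14, against -0.0018 over all probe sets tested, with 13 of 18 higher and 0 passing. The share of all tested probe sets that were higher was not computed. The median of the progenitor genes was -0.078 in pair 1 and 0.15 in pair 3, 0.051 without knockout replicate 3 and 0.25 without knockout replicate 1. Mcm2, a replication licensing subunit, was the highest with 0.46 ± 0.27 and Atoh7, a factor of ganglion cell fate, followed with 0.38 ± 0.25 (SE, limma). Early progenitor genes had a median of -0.032 over 8 tested, with Fgf15 at 0.59 and Foxp1 at -0.41.

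The late-born cell types with which NFI factors are associated also showed no gene past the test. Müller glia genes had a median difference of -0.039 over 17 tested, from -0.35 for Cav1 to 0.34 for Glul, the glutamine synthetase of glia. Bipolar genes had 0.027 over 7, from -0.27 for Irx6 to 0.54 for Pcp2. Cell cycle genes had 0.24 over 22, with 19 higher and 0 passing. The share of all tested probe sets that were higher was not computed, and genes of a list share the RNA of each array and are not replicates. The mitotic gene Birc5 led with 0.49 ± 0.25, and Cdkn1c, an inhibitor of cell cycle progression, was the lowest with -0.35 ± 0.29 (SE, limma). The median of the cell cycle genes was -0.17 in pair 1 and 0.40 in pair 3, 0.12 without wildtype replicate 2 and 0.41 without wildtype replicate 1. The medians of the rest were -0.040 for rod and photoreceptor genes, -0.17 for amacrine and horizontal cell genes, -0.034 for ganglion cell genes and -0.043 for astrocytes and optic nerve glia. They were 0.012 for vessels, blood and microglia and -0.067 for pigment epithelium, with 0 genes called in each. A single lens gene, Cryab, was tested, with -1.94 and 2698 in wildtype replicate 1 against 39.6 to 72.8 in the other 4 arrays.

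In knockout replicate 2 the NFI probe sets lost signal to very unequal extents. As deposited, the Nfix probe set 1436363_a_at had 620.4 and 1423493_a_at had 8.4, against 1427 and 736 in its wildtype littermate. That is 43.5% and 1.14% of the littermate's signal for probe sets of the same gene, and their ratio was 73.9, against 1.46 to 2.28 in the other 5 arrays. Nfic 1435527_at kept 39.0%, with 144.5 against 370.2. The Nfia probe set 1421163_a_at kept 2.55%, and Nfib 1427680_a_at, 1448288_at and 1438244_at kept 4.13%, 5.79% and 11.0%. The median over all tested probe sets was 6.27%. The signals of Nfix 1423493_a_at (8.4) and Nfia 1421163_a_at (8.7) lay below that array's median of 9.0, so their percentages and the ratio of 73.9 rest on dim values. The 3′ control probe set of Actb kept 47.9% and the 5′ one 0.241%, and the part of probe position in the NFI values was not tested, since positions were not used here.

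**Figure D5:**
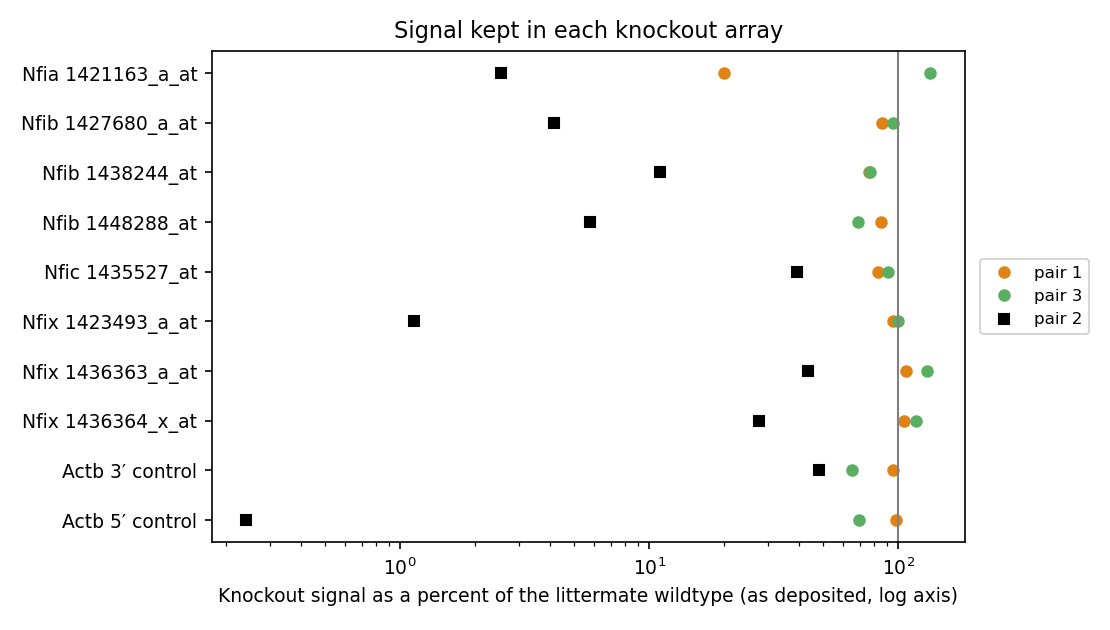
Signal of each knockout array as a percent of its wildtype littermate, as deposited (x axis, log scale), for the 8 tested NFI probe sets and the 3′ and 5′ Actb control probe sets (y axis). In pair 2 (black squares) Nfix 1436363_a_at keeps 43.5% and Nfix 1423493_a_at 1.14%, while in pairs 1 and 3 all probe sets but Nfia in pair 1 lie between 65.4% and 135%.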

How the data were processed

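The authors processed the arrays with MAS 5.0 and deposited 1 linear intensity per probe set and array. The intensities were not scaled between arrays. The genome build and the present calls were not used here. Of 22690 probe sets, 64 controls were left out. Symbols came from the platform annotation, in which 691 probe sets carry several.

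Arrays were scaled to a common 75th percentile, a constant of 1 was added and log2 taken. Probe sets with a mean above the median of means were tested with limma 3.58.1 in R 4.3.3 (two-sided, Benjamini-Hochberg), without a litter term, in 5 arrays. Knockout replicate 2 was left out for its Actb ratio. The number of arrays limits precision, and p-values measure the spread between these mice. The members, the gene lists (from general knowledge) and the tests were chosen with earlier results of these data known. Genes named are all NFI probe sets, genes among the 2 highest and 2 lowest of a list and the 3 nearest profiles of each NFI gene. Notch1 and the untested genes of the NFI list were named after their values were seen. Each list used the probe set with the highest mean per gene.

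The pairing is stated in the design. After group means were removed, r was 0.47 in pair 1 and 0.71 in pair 3 with 5 arrays, where both knockout arrays are mirror images, and 0.27, -0.15 and 0.14 with 6. Arrays of different pairs gave up to 0.62 with 5 arrays and 0.37 with 6 for wildtype replicate 2 with knockout replicate 1, and 0.17 for wildtype replicate 3 with knockout replicate 2. The fits were tested on simulated data, in which large changes (2 on the log2 scale) were called and smaller ones (1) were not. The simulated noise was independent between arrays, with no likeness of littermates, so it does not match these data in that respect. The changes were placed on probe sets drawn from all tested ones. In the fit to the real data the median SE was 0.23 over all tested, 0.33 over the 8 NFI probe sets, and 0.77 for Nfia. The simulation therefore does not show which change could have been called for an NFI probe set. Alternatives covered scaling, constant, filter, intensity trend, litter block, all 6 arrays and leaving out each array.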

Additional observations from a re-analysis of the deposited data

How the results depend on the processing

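The count of NFI probe sets passing, 0, and that of all probe sets, 0, held under each of the 15 alternatives, as did 0 over the gene lists. Unadjusted calls over all probe sets ran from 7 with all 6 arrays to 1463 with array weights, which did not reach their convergence tolerance, and were 456 with the replicate block in 5 arrays and 808 with no filter. Leaving out an array gave 31 to 474. The replicate block changed no call.

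The sign was less stable, since the differences were small. Nfib 1448288_at kept its sign under all 15, from -0.49 to -0.11. With all 6 arrays, and with the replicate block on all 6, Nfib 1438244_at became 0.062, Nfia -1.01, Nfib 1427680_a_at -0.26, Nfic 0.79, Nfix 1423493_a_at -0.80, 1436363_a_at 1.13 and 1436364_x_at 0.86, and the median of cell cycle genes 0.041. With array weights Nfia became 0.14, Nfib 1438244_at 0.33, and Nfix 1436363_a_at and 1436364_x_at -0.22 and -0.13. On signals as deposited, where the median of all probe sets moved to -0.27, Nfic became -0.21 and these Nfix probe sets -0.10 and -0.12. With the replicate block in 5 arrays Nfic became -0.083 and Nfix 1423493_a_at 0.079. Leaving out each array in turn, Nfia ran from -2.22 to 0.73, Nfib 1427680_a_at from -0.14 to 0.13, Nfib 1438244_at from -0.73 to 0.35, Nfic from -0.61 to 0.73, Nfix 1423493_a_at from -0.25 to 0.15, Nfix 1436363_a_at from -0.16 to 0.50 and Nfix 1436364_x_at from -0.10 to 0.41. The medians of the gene lists moved with the shift of signals as deposited, cell cycle genes to -0.035 and progenitor genes to -0.13. Of plain _at probe sets, 3 rather than 8 were above the median in all wildtype arrays, since 6 of the 16 carry that suffix. The litter differences of Nfic and Nfix kept their sign with other scalings, chosen after the data were seen: Nfic had 0.90 to 1.20 in wildtype and Nfix 1436363_a_at -1.22 to -0.86.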
